A study of Mus musculus with 18 samples.

Results

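B6 macrophages given LPS together with 5z7 were compared with B6 macrophages given LPS alone, in 3 libraries each and across all genes: 13068 of the 56953 gene IDs counted had enough reads to be tested. The cells were bone marrow derived macrophages (BMDM), cultured from the marrow of C57BL/6J mice (called B6) in medium with L929 cell supernatant, a source of the growth factor M-CSF. Total RNA was sequenced after 2 hours of LPS/5z7 (libraries 3, 6 and 9), after 2 hours of LPS (libraries 2, 5 and 8) or with no stimulus (libraries 1, 4 and 7), numbered as in the deposited table. The series holds the same 3 treatments, 3 libraries each, for macrophages of knock-in mice whose RIPK1 carries the T169A substitution, and their LPS/5z7 and LPS libraries serve here as a second set for the same contrast. The labels do not spell out 5z7, a name in common use for an oxozeaenol that inhibits the kinase TAK1, and give neither doses nor the order of addition. The series holds no cells given 5z7 without LPS. Every change below is the difference that 5z7 made on top of LPS, and an effect of 5z7 that does not need LPS cannot be told apart.

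LPS is sensed by TLR4 with its co-receptor CD14, and the receptor signals through the adaptors MyD88 and TRIF. The MyD88 branch reaches TAK1 (gene Map3k7), a kinase that works with the TAB proteins and activates both the IKK complex, which frees NF-kB, and the MAP kinases ERK, JNK and p38, which act on AP-1 factors and on the stability of cytokine mRNA. The TRIF branch leads to IRF3 and to interferon beta, whose secretion then turns on interferon-stimulated genes in the same culture.

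The 6 libraries held 15466988 to 30425934 counts, and 3 counts corresponded to 0.0986 to 0.194 CPM, counts scaled to the size of the library, in them. All 8 macrophage markers were tested, and their summed level was 35369 to 38874 CPM with LPS/5z7 and 36646 to 43805 CPM with LPS. Summed neutrophil markers stood at 14.62 to 21.01 CPM with LPS/5z7 and 23.2 to 28.6 CPM with LPS, B cell markers at 16.0 to 22.4 CPM and 13.3 to 20.4 CPM, and T cell markers at 4.12 to 5.29 CPM and 4.40 to 5.67 CPM, with the T cell markers Cd3e and Cd8a at 0 counts in all 6. Endothelial markers summed to 2.67 to 3.86 CPM with LPS/5z7 and 4.2 to 4.65 CPM with LPS, so these sums, like those of the neutrophil markers, did not overlap. None of the 12 markers of other cell types that could be tested passed, and the part of other cells in the results was not tested. In bulk RNA, fewer cells of a type and less RNA per cell cannot be told apart. The labels do not tell whether libraries were made from different mice or cultures, so the spread behind each p-value may be technical.

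With 5z7 added, 887 genes (6.79% of those tested) fell and 919 (7.03%) rose relative to LPS alone, by edgeR's quasi-likelihood test with a Benjamini-Hochberg adjusted p under 0.05. At 1.5-fold or more the counts were near equal, with 462 lower and 474 higher, and falls outnumbered rises among the largest changes: at 2-fold or more, 234 genes (1.79%) fell and 164 (1.25%) rose, and at 4-fold or more, 60 fell and 15 rose. Of the 1806 called genes, all but 18 had 3 LPS/5z7 libraries that did not overlap the 3 LPS libraries, and of the 18, 5 fell and 13 rose. A small adjusted p and groups that do not overlap come from the same libraries, so this describes the calls and adds no support to them. Genes that were not called can also have groups that do not overlap, as Cxcl10 and Ccl5 had, and the share over all tested genes is not given here. The count of lower genes was the steadier one: leaving out any 1 library left 629 to 733 lower genes but only 471 to 605 higher genes. In detail, 605, 526 and 511 genes were higher without LPS/5z7 library 3, 6 or 9, and 542, 471 and 539 without LPS library 2, 5 or 8, while the total fell to 1169 without LPS/5z7 library 6 and to 1159 without LPS library 5. Called with each of the 6 left out in turn were 526 of the lower genes (59.3%) and 329 of the higher ones (35.8%). The split also moved with the scaling: 516 lower and 2339 higher genes were called with library size alone in place of TMM, a choice that moved the median log2 change of all genes by 0.16.

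**Figure D1:**
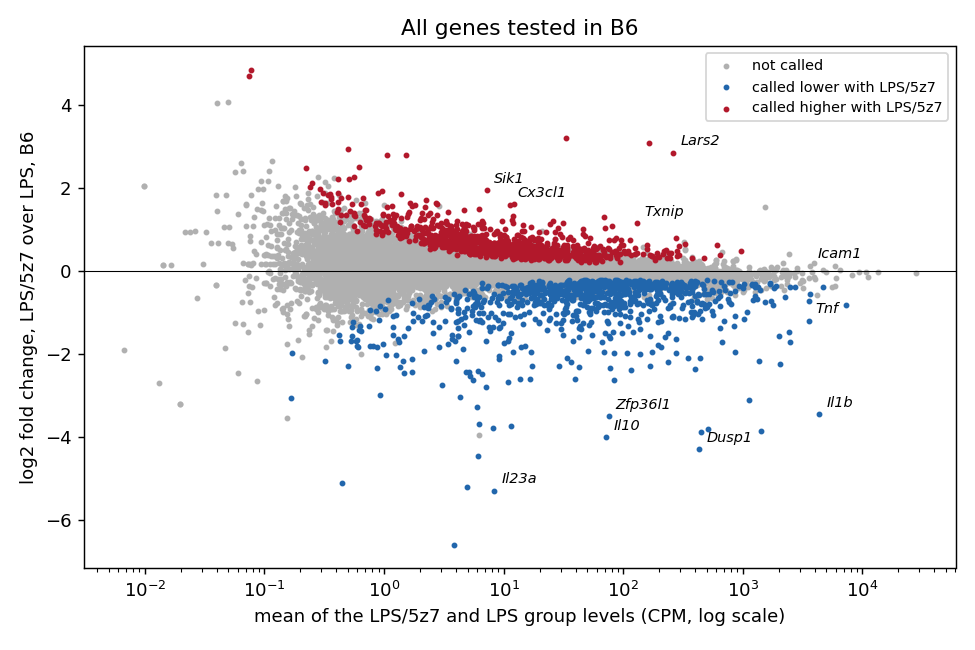
Each point is 1 of the 13068 genes tested, with the mean of the LPS/5z7 and LPS group levels (CPM, log axis) on the x axis and the log2 fold change of LPS/5z7 over LPS on the y axis; genes at 0 in both groups are not drawn. At levels above 1 CPM the largest falls (blue) reach further from 0 than the largest rises (red), among which Lars2 stands out because of LPS/5z7 library 3.

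Over all tested genes 6.79% were lower and 7.03% higher, the shares to set beside the counts of each gene group below. Inflammatory cytokines had the lowest median change of the 37 gene groups examined. Of 26 tested members, 18 (69.2%) were lower and 0 higher with LPS/5z7, with a median log2 change of -1.55 against 0.02 over all genes. Il23a, the p19 subunit of interleukin-23, had 0.452, 0.237 and 0.535 CPM with LPS/5z7, against 15, 16 and 18 CPM with LPS. All 3 treated libraries lay far below all 3 LPS libraries and above the unstimulated mean of 0.0136 CPM; the log2 change was -5.29 ± 0.34 (SE, adjusted p = 2.62e-08, edgeR). Csf3, which encodes the granulocyte growth factor G-CSF, had 0, 3 and 1 counts with LPS/5z7 and 141, 171 and 133 counts with LPS. Its sister gene Csf2, which encodes GM-CSF, had 0.452, 0.355 and 0.773 CPM with LPS/5z7 and 9.84, 9.77 and 15.2 CPM with LPS, so 4.54% of the LPS level was left.

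The anti-inflammatory cytokine gene Il10 was among the most reduced genes. It had 8.82, 7.58 and 9.21 CPM with LPS/5z7 and 120.3, 128 and 161 CPM with LPS, a log2 change of -4.00 ± 0.20 (SE, adjusted p = 1.54e-09, edgeR) that left 6.25% of the LPS level. The interleukin-1 genes kept similar shares, with 6.89% for Il1a and 9.15% for Il1b, and 2 members of the interleukin-6 family, Lif and Osm, kept 7.25% and 7.58%. Osm differed from the others in its starting point: it had 0.885 ± 0.151 CPM with LPS/5z7, 11.7 ± 1.64 CPM with LPS and already 9.89 ± 1.28 CPM in unstimulated cells (SD, n = 3 each), so the LPS/5z7 libraries lay below both other groups.

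Other main cytokines of the LPS response fell much less. Il6 had 24.3, 25.5 and 13.9 CPM with LPS/5z7 and 86.3, 87.2 and 66.9 CPM with LPS (log2 change -1.92 ± 0.29, SE, adjusted p = 0.00023, edgeR). Ifnb1, which encodes interferon beta, had 14.8, 13.9 and 10.5 CPM with LPS/5z7 and 56.0, 62.8 and 60.0 CPM with LPS, or 21.9% of the LPS level. Neither gene's libraries overlapped between the groups, and the LPS/5z7 libraries of both stayed far above the unstimulated means of 0.0278 and 0.0686 CPM. Tnf kept 43.7% of its LPS level, with 2151, 2235 and 2099 CPM with LPS/5z7 against 4667, 4806 and 5368 CPM with LPS. Il12b, the p40 subunit that interleukin-12 and interleukin-23 share, kept 53.8%, with 166, 175 and 153 CPM against 325, 329 and 267 CPM. The subunits of interleukin-23 thus ended at 2.50% (Il23a) and 53.8% (Il12b) of their LPS levels.

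**Figure D2:**
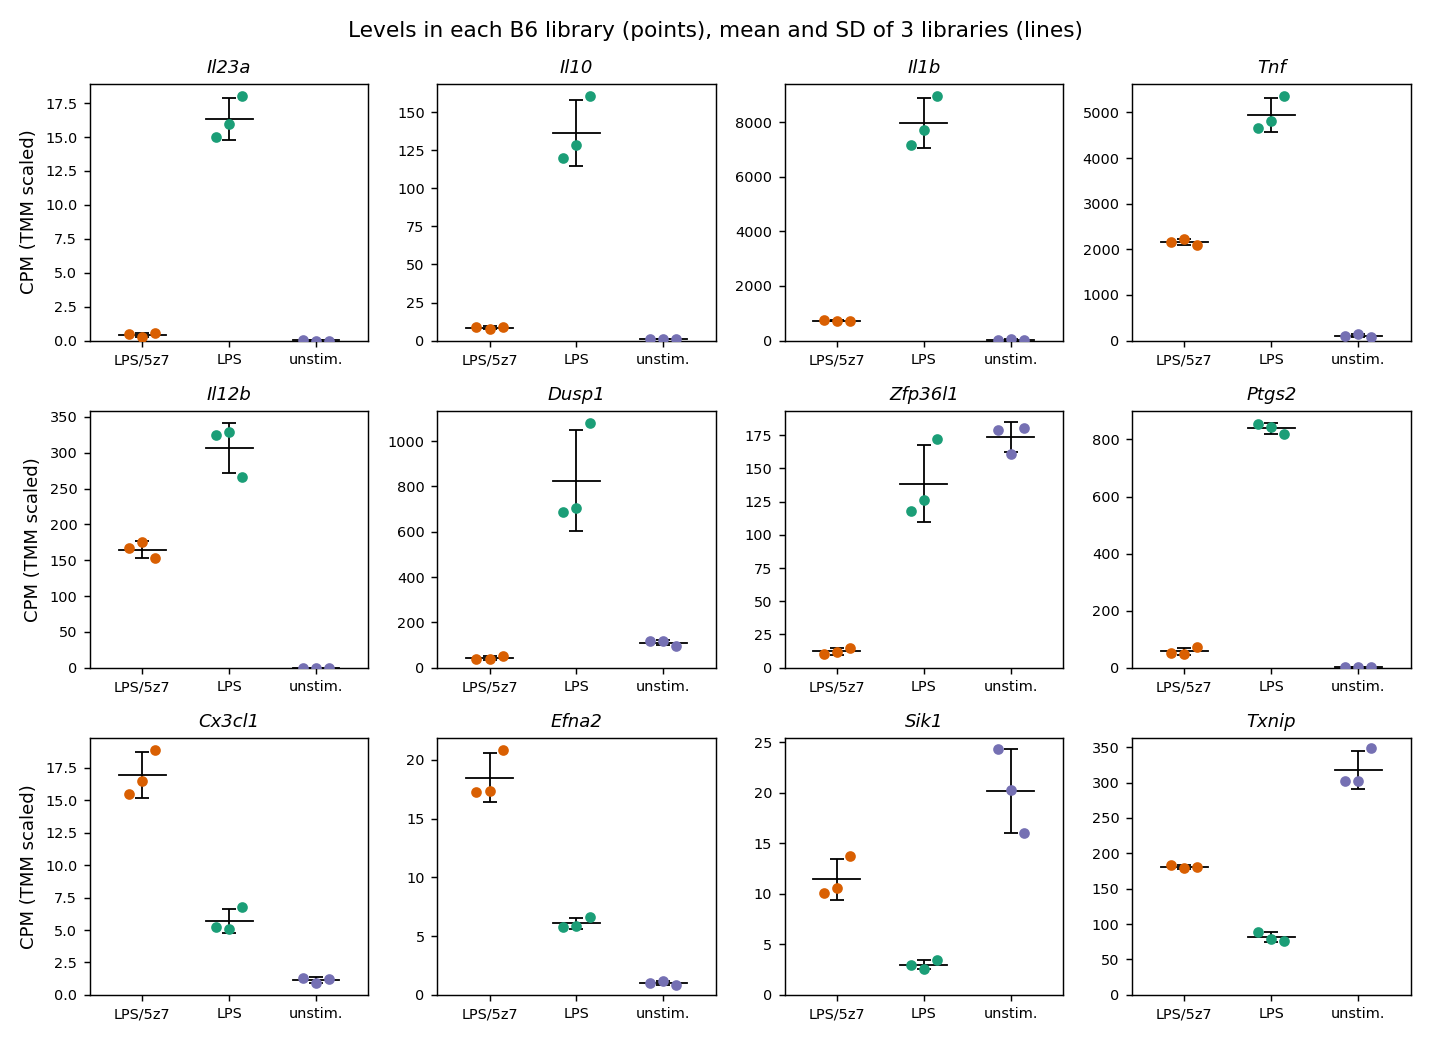
Each panel shows 1 gene, with CPM (TMM scaled, linear axis from 0) for the 3 B6 libraries with LPS/5z7, the 3 with LPS and the 3 unstimulated ones; points are libraries, and the lines show the mean and SD of each group. Il23a and Il10 with LPS/5z7 sit far below LPS and above the unstimulated libraries, Tnf and Il12b sit between, Dusp1 and Zfp36l1 lie below the unstimulated libraries, Cx3cl1 and Efna2 lie above both other groups, and Sik1 and Txnip lie between LPS and unstimulated libraries.

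Genes that restrain MAP kinases and receptor kinases fell as a group. Of the 16 tested, 13 (81.3%) were lower and 0 higher, against 6.79% and 7.03% of all genes, with a median log2 change of -1.19. Leaving out 1 library left 9 to 11 lower, and no filter on low counts left 9. With library size alone 12 were lower and 1 was higher. Dusp1, the phosphatase that switches off p38 and JNK, had 37.5, 36.2 and 53.8 CPM with LPS/5z7 and 689, 705 and 1082 CPM with LPS (log2 change -4.28 ± 0.20, SE, adjusted p = 8.41e-10, edgeR). The LPS/5z7 libraries lay below the unstimulated ones too, which had 117, 120.0 and 96.2 CPM. Errfi1, an inhibitor of the EGF receptor, had 67.4, 69.6 and 67.7 CPM with LPS/5z7 and 865, 852 and 1128 CPM with LPS, a 13.9-fold lower mean. Dusp4, Dusp5 and Dusp14, further MAP kinase phosphatases, were 4.26-fold, 2.91-fold and 3.23-fold lower, and Spry2, an inhibitor of receptor kinase signalling, was 5.41-fold lower.

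The AP-1 and EGR transcription factors, which MAP kinases induce and activate, moved the same way, with 13 of 16 lower (81.3%), 0 higher and a median log2 change of -0.96. Leaving out 1 library left 10 to 13 lower, and library size alone left 11. Maff had 22.5, 23.4 and 23.8 CPM with LPS/5z7 and 126, 130.3 and 172 CPM with LPS, and Fosl2 had 43.6, 47.2 and 74.1 CPM against 175, 169.5 and 313 CPM. Their groups did not overlap. Fos, Jun and Egr1 were less abundant with LPS at 2 hours than in unstimulated cells, and lower still with LPS/5z7: Fos had 8.84 ± 1.02 CPM with LPS/5z7, 18.9 ± 2.87 CPM with LPS and 257 ± 5.45 CPM without stimulus, and Jun had 8.42 ± 0.907, 20.4 ± 2.62 and 109 ± 1.58 CPM in that order (SD, n = 3 each). Egr1 had a log2 change of -1.10 ± 0.15 (SE, adjusted p = 0.0001, edgeR).

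Among 19 other immediate early genes 13 (68.4%) were lower and 0 higher, with a median log2 change of -1.11. With a replicate block or these groups alone 1 was higher, and with library size alone 2 were. Phlda1, a regulator of cell survival, had 1.76, 1.78 and 1.25 CPM with LPS/5z7 and 18.6, 17.9 and 28.5 CPM with LPS, which left the treated libraries at the unstimulated mean of 1.78 CPM. Ier3, an anti-apoptotic early gene, Gadd45a, a stress gene that acts on MAP kinase signalling, and Btg2, an antiproliferative gene, were 5.06-fold, 3.56-fold and 2.62-fold lower. The kinase gene Plk3 had 0.498, 1.30 and 0.594 CPM with LPS/5z7 and 5.04, 5.36 and 5.36 CPM with LPS, and its unstimulated level was higher than either at 15.1 ± 1.55 CPM (SD, n = 3).

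Genes whose products destabilise cytokine mRNA were lower in 4 of 12 cases (33.3%), with 0 higher and a median log2 change of -0.21: Zfp36, Zfp36l1, Zfp36l2 and Zc3h12a. Zfp36l1 changed most, with 9.95, 12.1 and 14.7 CPM with LPS/5z7 against 118, 126 and 172 CPM with LPS, while unstimulated cells held 173 ± 11.2 CPM (SD, n = 3), a level at or above those of most LPS libraries. Zfp36, which encodes tristetraprolin, had 307, 322 and 447 CPM with LPS/5z7 and 1172, 1202 and 1762 CPM with LPS (log2 change -1.94 ± 0.15, SE, adjusted p = 1.77e-07, edgeR). The calls of Zfp36l2 and Zc3h12a were lost without LPS/5z7 library 9, which left 2 of 12. With library size alone 2 were lower too, and without LPS/5z7 library 3 the count was 3.

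Of 17 chemokines, 11 (64.7%) were lower and 1 was higher, with a median log2 change of -0.98. The neutrophil attractant Cxcl2 had 247, 241 and 218 CPM with LPS/5z7 and 1798, 1921 and 2366 CPM with LPS (log2 change -3.11 ± 0.24, SE, adjusted p = 1.69e-07, edgeR), while Cxcl1 and Cxcl3 kept 29.0% and 19.2% of their LPS levels. The monocyte attractants Ccl2 and Ccl3 were 4.27-fold and 4.72-fold lower. Cx3cl1, or fractalkine, went the other way, with 15.5, 16.5 and 18.9 CPM with LPS/5z7 and 5.20, 5.08 and 6.76 CPM with LPS (log2 change 1.60 ± 0.17, SE, adjusted p = 5.83e-06, edgeR). All its LPS/5z7 libraries lay above all LPS libraries, which in turn lay above the unstimulated mean of 1.13 CPM. Ccl5, a T cell attractant, kept 87.6% of its LPS level and did not pass, with 1381, 1367 and 1388 CPM with LPS/5z7 and 1440, 1558 and 1722 CPM with LPS (adjusted p = 0.769, edgeR).

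Secreted and membrane-bound effectors were lower in 14 of 29 cases (48.3%), with a median log2 change of -0.43. Ptgs2, the inducible cyclooxygenase, had 51.1, 47.8 and 72.6 CPM with LPS/5z7 and 854, 844 and 818 CPM with LPS, so 6.82% of the level remained. F3, or tissue factor, was 6.93-fold lower, and Plau, which encodes urokinase, its receptor gene Plaur and the inhibitor gene Serpinb2 were 4.90-fold, 5.14-fold and 6.11-fold lower. Plau with LPS/5z7 (61.2, 63.2 and 45.5 CPM) lay below LPS (270.1, 276 and 285 CPM) and also below the unstimulated mean of 258 CPM. The complement gene C3, named after its values were seen, was the 1 higher member, at 1097, 1078 and 1241 CPM with LPS/5z7 and 848, 798 and 788 CPM with LPS (log2 change 0.49 ± 0.14, SE, adjusted p = 0.0283, edgeR), and it lost its call whichever of the 6 libraries was left out.

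Of 11 NF-kB subunits and inhibitors, 4 (36.4%) were lower and 0 higher, with a median log2 change of -0.34. Nfkbia, the inhibitor IkB alpha and a direct NF-kB target, had 1735, 1741 and 1895 CPM with LPS/5z7 and 2495, 2657 and 3104 CPM with LPS (log2 change -0.62 ± 0.15, SE, adjusted p = 0.0107, edgeR). The treated libraries were below all LPS libraries and still several times the unstimulated mean of 267 CPM. Nfkbid, an atypical inhibitor, was 1.77-fold lower, while Nfkb1 had 1106, 1110 and 1122 CPM against 1406, 1339 and 1341 CPM and did not pass (adjusted p = 0.0646, edgeR; 0.0312 with a replicate block, 0.011 with DESeq2). Only 2 of the 11 passed without LPS/5z7 library 3, LPS/5z7 library 6 or LPS library 8 and with library size alone, against 6 with DESeq2 or a replicate block and 7 with the fit of these groups alone.

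Regulators that NF-kB induces were lower in 5 of 17 cases (29.4%), and 1 was higher, with a median log2 change of -0.26. The ubiquitin-editing enzyme gene Tnfaip3 (A20) had 1238, 1318 and 1312 CPM with LPS/5z7 and 3674, 3570 and 3558 CPM with LPS (log2 change -1.48 ± 0.23, SE, adjusted p = 0.00037, edgeR). Birc2, which encodes the ubiquitin ligase cIAP1, rose: it had 126, 123 and 135 CPM with LPS/5z7 and 97.5, 89.9 and 89.5 CPM with LPS (log2 change 0.47 ± 0.11, SE, adjusted p = 0.00688, edgeR). Its paralog Birc3 had 366, 362 and 411 CPM and 409.7, 392 and 409 CPM, which overlapped (adjusted p = 0.778, edgeR). The adhesion molecule gene Icam1 also overlapped, with 3727, 3709 and 4036 CPM with LPS/5z7 against 3361, 3332 and 3822 CPM with LPS (log2 change 0.13 ± 0.13, SE, adjusted p = 0.612, edgeR). Without LPS/5z7 library 3 or 6, and with library size alone, 3 of the 5 lower calls were left, against 8 with the fit of these groups alone.

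Of 36 interferon-stimulated genes, 3 (8.33%) were lower and 0 higher, a share near the 6.79% of all genes, with a median log2 change of -0.25. That share depended on the model: 11 (30.6%) were lower with a replicate block, against 9.27% of all genes, and 14 (38.9%) with these groups alone, against 10.95%. Cxcl10 had 3420, 3457 and 3186 CPM with LPS/5z7 and 4651, 5049 and 5254 CPM with LPS, 67.3% of the LPS level. These groups did not overlap, but the gene did not pass (log2 change -0.57 ± 0.24, SE, adjusted p = 0.137, edgeR), and it did pass with a replicate block (adjusted p = 0.014) and in the fit of these groups alone (0.000542). Rsad2, an antiviral gene, had 2783, 2828 and 2637 CPM with LPS/5z7 and 3807, 3762 and 3313 CPM with LPS (adjusted p = 0.348, edgeR; 0.00444 with a replicate block and 0.00454 with these groups alone). The transcription factor gene Irf1 had 1801, 1797 and 1774 CPM against 1701, 1730 and 1758 CPM (adjusted p = 0.859, edgeR). The count of 3 was 0 without LPS/5z7 library 3, LPS/5z7 library 6 or LPS library 8 and with library size alone, and 1 without LPS library 2 or 5.

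**Figure D3:**
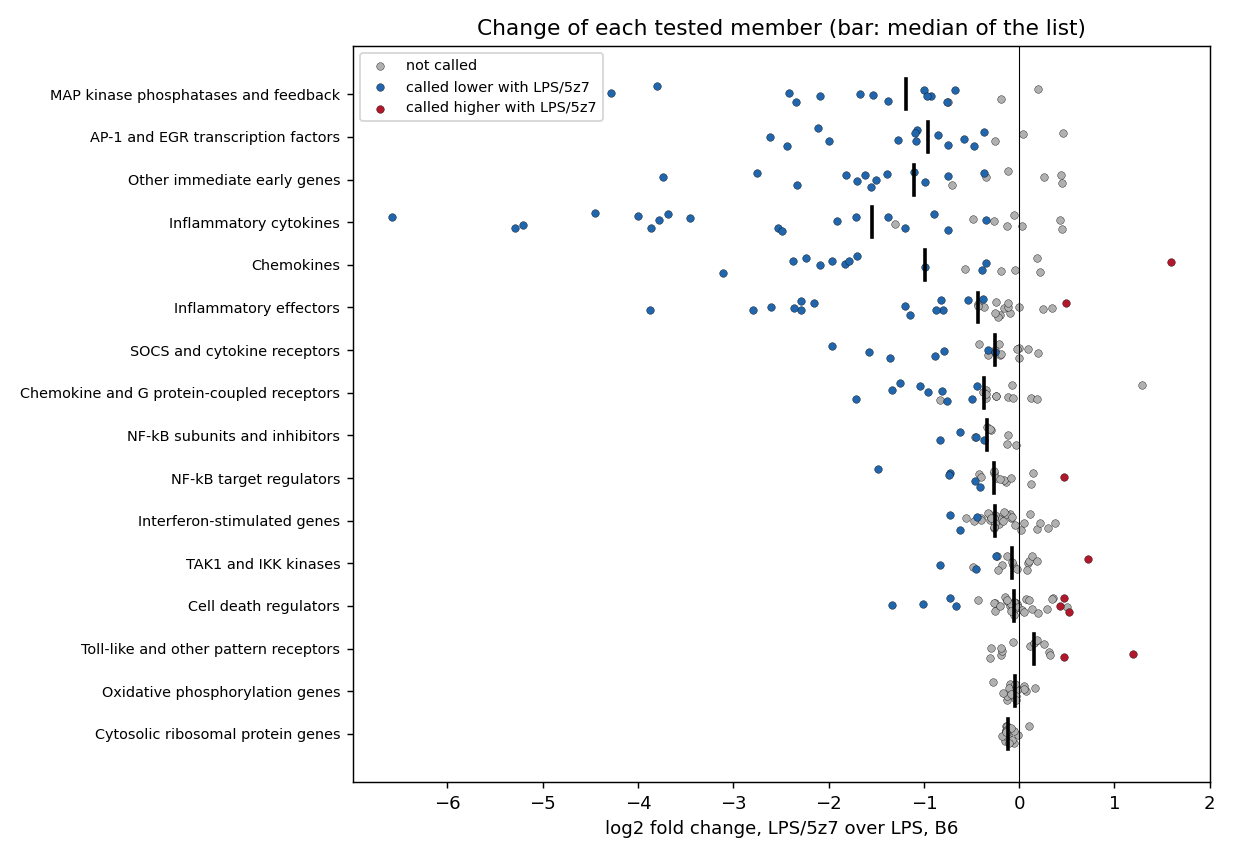
Each point is a tested member of the gene group named on the left, placed by its log2 fold change of LPS/5z7 over LPS in B6 (x axis); blue points were called lower, red points higher and grey points neither, and the bar is the group's median. Cytokines, MAP kinase phosphatases, AP-1 factors and immediate early genes sit left of 0 with medians of -1.55 to -0.96, interferon-stimulated genes have a median of -0.25, and cell death regulators, oxidative phosphorylation and ribosomal protein genes have medians of -0.05, -0.05 and -0.12.

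Within the receptor complex and its adaptors, 5 of 17 genes (29.4%) were lower and 1 was higher, with a median log2 change of -0.16. The 2 TRIF-branch adaptors moved in opposite directions. Ticam1, which encodes TRIF, had 41.7, 44.6 and 43.9 CPM with LPS/5z7 and 77.6, 74.9 and 68.7 CPM with LPS (log2 change -0.77 ± 0.09, SE, adjusted p = 1.65e-05, edgeR). Ticam2, which encodes TRAM, the adaptor that links TLR4 to TRIF, had 89.8, 88.2 and 105 CPM with LPS/5z7 and 46.3, 46.6 and 45.0 CPM with LPS (log2 change 1.04 ± 0.09, SE, adjusted p = 6.46e-07, edgeR), above the unstimulated mean of 28.4 CPM in every library. The co-receptor gene Cd14 fell to 2702 ± 48.9 CPM with LPS/5z7, against 4463 ± 486 CPM with LPS (SD, n = 3 each). With library size alone 3 of the 5 lower calls were left and 3 genes were higher.

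Of the 17 TAK1 and IKK kinase genes themselves, 3 (17.6%) were lower and 1 (5.88%) was higher, against 6.79% and 7.03% of all genes. The other 13 were not called, and the median log2 change was -0.07. Map3k7, which encodes TAK1, had 67.4, 75.0 and 73.8 CPM with LPS/5z7 and 81.4, 79.7 and 64.3 CPM with LPS, which overlapped (adjusted p = 0.83, edgeR). Tab1, a partner that activates TAK1, rose, with 8.19, 8.29 and 6.96 CPM with LPS/5z7 and 4.80, 4.93 and 4.43 CPM with LPS (log2 change 0.72 ± 0.14, SE, adjusted p = 0.00245, edgeR), while unstimulated cells had 27.8 ± 1.46 CPM (SD, n = 3). Tab2, the ubiquitin-binding partner, had 652, 653 and 665 CPM against 782, 749 and 693 CPM and did not pass (adjusted p = 0.347, edgeR). Of the lower members Tnip2, Map3k8 and Ube2n, Tnip2 alone was still called without LPS/5z7 library 3, LPS/5z7 library 6 or LPS library 8, as with library size alone, a scaling that also called 3 higher.

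Among the MAP kinase cascade genes 5 of 20 (25.0%) were lower and 1 was higher, with a median log2 change of -0.10. Map3k5, which encodes the stress kinase ASK1, had 164, 159.8 and 170.1 CPM with LPS/5z7 and 256, 237 and 237 CPM with LPS. Mapkapk3, a p38 substrate kinase, was 1.43-fold lower. Map3k14, which encodes the NF-kB inducing kinase NIK of the alternative pathway, was higher at 26.0, 25.0 and 22.5 CPM with LPS/5z7 against 14, 14 and 14.5 CPM with LPS (log2 change 0.79 ± 0.11, SE, adjusted p = 7.18e-05, edgeR), and lay below its unstimulated mean of 31.0 CPM in both. With library size alone 2 were lower and 4 higher.

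Of 35 regulators of cell death, 4 (11.4%) were lower and 3 (8.57%) higher, shares near the 6.79% and 7.03% of all genes, with a median log2 change of -0.05. Mcl1, an anti-apoptotic BCL2 family member, had 1071, 1027 and 929 CPM with LPS/5z7 and 1658, 1619 and 1524 CPM with LPS (log2 change -0.67 ± 0.10, SE, adjusted p = 0.000167, edgeR). Cflar, the caspase-8 inhibitor c-FLIP, had 1306, 1353 and 1240 CPM against 2302, 2190 and 1961 CPM. Its call (adjusted p = 0.034, edgeR) was lost with library size alone (0.0605), with no filter (0.128) and without LPS/5z7 library 3 (0.0902), 6 (0.0739) or 9 (0.101) or LPS library 2 (0.0934) or 5 (0.0837). Pmaip1, the pro-apoptotic NOXA, was 1.99-fold lower, the inflammasome sensor gene Nlrp3 was 2.51-fold lower, and the initiator caspase gene Casp9 rose to 22.03, 20.3 and 20.3 CPM with LPS/5z7, against 14.8, 15.3 and 13.2 CPM with LPS. Ripk1 had 79.3, 81.0 and 75.1 CPM with LPS/5z7 and 90.9, 85.9 and 80.7 CPM with LPS, and Casp8 had 91.7, 92.6 and 88.3 CPM and 97.6, 99.2 and 94.4 CPM, with adjusted p of 0.593 and 0.549 (edgeR). The necroptosis effector gene Mlkl did not pass either, with 38.5, 37.1 and 32.8 CPM against 45.2, 42.4 and 41.4 CPM (adjusted p = 0.376, edgeR). With library size alone 8 of the 35 were higher, and with a replicate block 5 were.

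Feedback inhibitors of cytokine signalling and several receptor genes also fell. SOCS proteins and cytokine receptors were lower in 7 of 18 cases (38.9%) and higher in 0, with a median log2 change of -0.25. Cish and Socs3, feedback inhibitors of cytokine receptors, had 70.5 ± 5.83 and 1002 ± 141 CPM with LPS/5z7, against 275 ± 50.7 and 2987 ± 445 CPM with LPS (SD, n = 3 each). Chemokine and other G protein-coupled receptors were lower in 9 of 22 cases (40.9%) and higher in 0, with a median log2 change of -0.37. The chemokine receptors Ccr1 and Ccr3 were 2.52-fold and 2.06-fold lower. Cxcr4, the receptor of CXCL12, had 2.85, 4.32 and 3.98 CPM with LPS/5z7 and 7.56, 6.78 and 7.15 CPM with LPS, after 368 ± 14.6 CPM in unstimulated cells (SD, n = 3). Adora2b, the adenosine A2b receptor gene, had 32.6, 32.6 and 36.3 CPM with LPS/5z7 and 118, 126 and 155 CPM with LPS (log2 change -1.97 ± 0.19, SE, adjusted p = 2.37e-06, edgeR).

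Of 24 glycolysis and hypoxia genes 6 (25.0%) were lower, 1 was higher and 17 were not called, with a median log2 change of -0.15. Slc2a1, the glucose transporter GLUT1, had 52.7, 59.2 and 55.8 CPM with LPS/5z7 and 126, 129 and 146 CPM with LPS (log2 change -1.26 ± 0.09, SE, adjusted p = 7.35e-08, edgeR). The hexokinase gene Hk2 and the glycolytic regulator gene Pfkfb3 were 2.17-fold and 2.07-fold lower. Egln1, an oxygen sensor that marks HIF for destruction, was the higher member, at 23.8, 24.4 and 25.5 CPM with LPS/5z7 against 18.1, 19.0 and 17.6 CPM with LPS. No call was made among 17 oxidative phosphorylation genes or 18 cytosolic ribosomal protein genes, whose median log2 changes were -0.05 and -0.12. At an unadjusted p under 0.05, 2 oxidative phosphorylation genes were lower and 0 ribosomal protein genes passed in either direction; DESeq2 called 1 oxidative phosphorylation gene lower and 0 ribosomal protein genes.

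The 15 genes that rose 4-fold or more all fell outside the limits used to name genes, which are groups that did not overlap and a mean of at least 10 CPM in the higher group. Within those limits Sik1 and Efna2 rose the most. Sik1, a salt-inducible kinase that holds back CREB co-activators, had 10.04, 10.5 and 13.7 CPM with LPS/5z7 and 3.0, 2.56 and 3.42 CPM with LPS (log2 change 1.95 ± 0.18, SE, adjusted p = 1.26e-06, edgeR). Efna2, an ephrin ligand, had 17.2, 17.3 and 20.9 CPM with LPS/5z7 and 5.80, 5.87 and 6.61 CPM with LPS (log2 change 1.61 ± 0.17, SE, adjusted p = 4.58e-06, edgeR). Groups did not overlap for either gene, but their unstimulated levels lay on opposite sides, at 20.2 CPM for Sik1 and 1.01 CPM for Efna2. Like Efna2, the actin-bundling gene Fscn1, the tetraspanin gene Tspan33 and the fibrinogen-like gene Fgl2 stood higher with LPS than without and higher again with LPS/5z7, with means of 43.6, 33.7 and 98.2 CPM with LPS/5z7, 19.7, 15.3 and 39.9 CPM with LPS and 0.469, 6.37 and 11.1 CPM in unstimulated cells.

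Others stood lower with LPS than without and higher with LPS/5z7 than with LPS. Txnip, a thioredoxin-binding protein that limits glucose uptake, had 183, 179 and 180.1 CPM with LPS/5z7, 88.9, 79.2 and 75.5 CPM with LPS and 302, 302 and 349 CPM in unstimulated cells, so LPS/5z7 lay between. Its log2 change was 1.15 ± 0.10 (SE, adjusted p = 4.9e-07, edgeR). The stress gene Sesn1 and the glucocorticoid-induced gene Tsc22d3 (GILZ) had the same order, with 22.8, 11.1 and 202 CPM and 16.4, 7.11 and 80.4 CPM for LPS/5z7, LPS and unstimulated cells. Tlr9, the endosomal receptor of unmethylated DNA, had 35.8, 35.4 and 37.3 CPM with LPS/5z7 and 17.8, 15.4 and 14 CPM with LPS (log2 change 1.20 ± 0.24, SE, adjusted p = 0.00238, edgeR). It was 1 of 2 higher members (13.3%) among 15 pattern receptors, of which 0 were lower, against 7.03% higher and 6.79% lower over all genes. The other was Tlr6, a partner of TLR2, which was 1.39-fold higher and lost its call without LPS library 8 (adjusted p = 0.0506), leaving 1 of 15.

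Library 3 of the LPS/5z7 group stood apart in a few genes outside the groups above, which were chosen after their values were seen. Lars2, a mitochondrial leucyl-tRNA synthetase gene, had 1153, 167 and 54.8 CPM with LPS/5z7 and 55.1, 61.3 and 75.3 CPM with LPS. Mir6236 had 738, 107 and 32.3 CPM and 29.2, 34.7 and 41.4 CPM, and Gm15564 had 152, 22.2 and 6.72 CPM and 5.40, 7.25 and 7.54 CPM. The groups overlapped through LPS/5z7 library 9, while library 6 also lay above every LPS library in all 3 genes. Their calls as higher genes (adjusted p = 0.0284, 0.0358 and 0.0208, edgeR) were lost without library 3, at adjusted p of 0.493, 0.498 and 0.362, and with a replicate block, at 0.19, 0.181 and 0.14; the cause was not tested.

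The direction of the change went with the direction of the LPS response. Genes were put into classes by LPS against unstimulated T169A libraries, which share no library with the B6 contrast: LPS raised 1888 of the 13068 genes (14.4%) over 2-fold there and lowered 2099 (16.1%). These classes depend on the scaling, with TMM factors of 1.25 to 1.28 in the unstimulated and 0.83 to 0.86 in the LPS libraries of T169A. Classes under another scaling are not given. Of 886 genes raised over 4-fold, 278 (31.4%) were lower and 30 (3.39%) higher with LPS/5z7 in B6, and of 1002 raised 2 to 4-fold, 219 (21.9%) were lower and 20 (2.00%) higher. Of 1489 genes lowered 2 to 4-fold, 29 (1.95%) were lower and 329 (22.1%) higher, and of 610 lowered over 4-fold, 18 (2.95%) were lower and 126 (20.7%) higher. Between them, the 9081 genes that stayed within 2-fold were lower in 3.78% and higher in 4.56% of cases. The median log2 changes ran from -0.33 in the most raised class to 0.49 in the most lowered one, so most LPS-raised genes were not called lower.

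**Figure D4:**
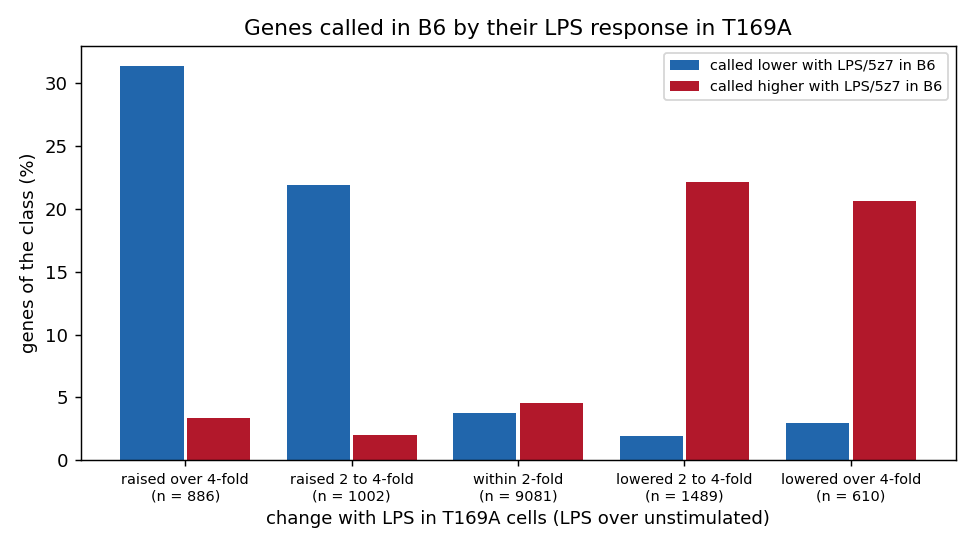
Bars give the percentage of genes in each class (x axis, by the fold change of LPS over unstimulated in T169A cells, with the number of genes) that were called lower (blue) or higher (red) with LPS/5z7 in B6. Lower calls reach 31.4% among genes raised over 4-fold, higher calls reach 22.1% among genes lowered 2 to 4-fold, and both stay under 5% between.

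The same contrast in the T169A libraries repeated most of these calls. Both contrasts came from the same fit and share its estimate of each gene's spread, so their calls are not independent. In T169A 853 genes (6.53%) fell and 850 (6.5%) rose with LPS/5z7. Of the 887 genes lower in B6, 721 were lower in T169A too, which is 81.3% of the B6 genes and 84.5% of the T169A genes; of the 919 higher in B6, 598 were shared (65.1% and 70.4%), and 0 genes were called in opposite directions. The genes lower in B6 had a median log2 change of -0.61 in B6 and -0.57 in T169A, and those higher in B6 had 0.60 and 0.51. By group, 18 cytokines, 13 MAP kinase regulators, 13 AP-1 and EGR factors and 13 other immediate early genes were lower in T169A, the counts found in B6. The log2 change in T169A was -4.98 ± 0.31 for Il23a, -3.86 ± 0.20 for Il10, -4.03 ± 0.20 for Dusp1, 1.62 ± 0.17 for Cx3cl1 and 1.12 ± 0.09 for Ticam2 (SE).

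No gene passed a test of whether the effect of 5z7 differed between B6 and T169A (0 of 13068, 0%, edgeR, smallest adjusted p = 0.999986). At an unadjusted p under 0.05, 151 of the 13068 passed. That is a smaller share than the 0.05 that would pass if no gene differed and p-values were evenly spread, so the p-values of this test ran high. DESeq2, a replicate block and the fit of these groups alone also called 0. The smallest p belonged to 3 genes with low levels: the pseudogene Atp6v0c-ps2, Aox1 and 4930579G24Rik had differences in log2 change, B6 minus T169A, of -5.10 ± 1.21, 2.39 ± 0.57 and -1.81 ± 0.44 (SE). For the genes described above the differences were -0.31 ± 0.56 for Il23a, -0.14 ± 0.27 for Il10, -0.04 ± 0.27 for Tnf, -0.25 ± 0.25 for Dusp1 and 0.35 ± 0.26 for Sik1 (SE). A p that misses the threshold does not show that the genotypes respond alike.

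**Figure D5:**
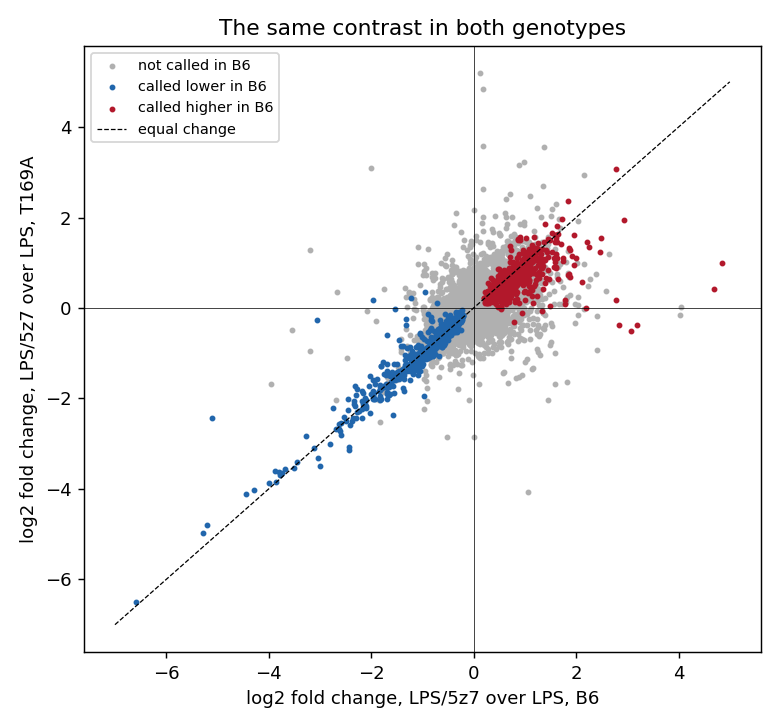
Each point is a tested gene, with its log2 fold change of LPS/5z7 over LPS in B6 on the x axis and in T169A on the y axis; colours give the call in B6 and the dashed line marks equal change. The 887 genes lower in B6 (blue) lie along the line down to the largest falls, and those higher in B6 (red) scatter more widely above 0.

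Genes with large changes had fewer exons. Protein-coding genes that fell 2-fold or more had a median of 5 exons in their longest transcript and spanned 13.9 kb, and those that fell 4-fold or more had 4 exons and 8.30 kb, against 8 exons and 23.8 kb over all tested genes. Transcripts of 5 exons or fewer made up 56.3% of the genes that fell 2-fold or more, 68.9% of those that rose as much and 34.7% of all. The large rises shared this feature with the large falls, so it did not separate the directions.

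The sequences just upstream were examined because genes of the same kind fell together, and the promoters shown are those of the most changed genes in each direction within the same limits of overlap and level that have an entry in the RefSeq promoter table (build GRCm38.p6). Csf3, whose LPS mean was 7.57 CPM, lay outside those limits. Each run is the 250 bases before the RefSeq start, 5′ to 3′ on the strand of the gene, with matches to any motif searched in capitals. Il23a, Il10, Osm, Phlda1 and Sik1 have no entry.
Csf2 (chr11:54249900-54250149, minus strand): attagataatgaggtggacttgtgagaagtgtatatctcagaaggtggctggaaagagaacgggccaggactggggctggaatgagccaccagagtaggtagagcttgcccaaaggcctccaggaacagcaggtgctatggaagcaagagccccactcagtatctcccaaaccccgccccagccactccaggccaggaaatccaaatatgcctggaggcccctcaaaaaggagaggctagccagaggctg
Dusp1 (chr17:26508473-26508722, minus strand): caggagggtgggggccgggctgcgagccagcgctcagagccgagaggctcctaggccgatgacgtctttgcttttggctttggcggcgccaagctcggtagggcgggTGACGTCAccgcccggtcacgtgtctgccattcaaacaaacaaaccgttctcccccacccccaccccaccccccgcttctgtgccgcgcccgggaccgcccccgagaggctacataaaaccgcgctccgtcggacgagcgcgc
Ptgs2 (chr1:150099781-150100030, plus strand): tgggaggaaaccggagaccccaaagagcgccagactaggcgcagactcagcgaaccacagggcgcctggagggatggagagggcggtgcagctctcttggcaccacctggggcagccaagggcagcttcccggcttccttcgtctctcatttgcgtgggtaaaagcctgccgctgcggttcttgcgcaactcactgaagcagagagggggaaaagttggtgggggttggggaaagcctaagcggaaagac
Il1a (chr2:129309973-129310222, minus strand): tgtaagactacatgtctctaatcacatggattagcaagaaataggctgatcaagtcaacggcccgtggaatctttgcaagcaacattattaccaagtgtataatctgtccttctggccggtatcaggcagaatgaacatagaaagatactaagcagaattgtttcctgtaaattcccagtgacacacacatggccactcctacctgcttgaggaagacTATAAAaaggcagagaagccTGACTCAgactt
Efna2 (chr10:80179232-80179481, plus strand): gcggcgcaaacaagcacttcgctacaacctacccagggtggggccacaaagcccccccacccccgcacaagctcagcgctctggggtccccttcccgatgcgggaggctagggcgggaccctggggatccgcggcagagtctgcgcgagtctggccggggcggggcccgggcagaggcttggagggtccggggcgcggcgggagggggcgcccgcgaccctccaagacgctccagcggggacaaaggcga
Cx3cl1 (chr8:94771930-94772179, plus strand): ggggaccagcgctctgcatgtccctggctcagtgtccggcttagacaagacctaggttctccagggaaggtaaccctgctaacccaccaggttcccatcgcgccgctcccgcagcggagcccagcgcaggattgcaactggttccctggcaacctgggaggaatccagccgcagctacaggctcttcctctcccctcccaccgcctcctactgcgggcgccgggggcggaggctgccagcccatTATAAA

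Csf2, Dusp1, Ptgs2 and Il1a fell and Efna2 and Cx3cl1 rose. The capitals in Dusp1 are the cAMP response element TGACGTCA at bases -143 to -136, counted back from the start, and those in Il1a are TATAAA at -32 to -27 and the AP-1 motif TGANTCA, as TGACTCA, at -12 to -6. Cx3cl1 holds TATAAA at -6 to -1, though the nearest transcript start of GENCODE lies 24 bases from the RefSeq one. The printed start of Csf2 lies 232 bases from the nearest GENCODE start. For Csf2, Ptgs2 and Efna2 no match was found, which says only that those letters are not in these windows.

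Motif shares were counted over 9592 tested genes with a promoter entry, on both strands, with 676 lower genes, 168 of them 2-fold or more, and 724 higher genes. TGANTCA stood in 50 promoters of lower genes (7.40%), in 24 of those 2-fold or more lower (14.3%) and in 25 of higher genes (3.45%), against 4.35% of all tested genes and 6.75% of all 32851 promoters in the table. The kappa-B motif of NF-kB stood in 7.10%, 8.93% and 3.31%, against 4.56% and 3.90%. TATAAA stood in 10.5%, 15.5% and 4.56%, against 6.27% and 12.4%. The cAMP response element stood in 4.44%, 5.36% and 3.45%, against 2.77% and 1.55%. The interferon response motif GAAANNGAAA was held by 3.25%, 4.17% and 2.21%, against 2.91% and 2.98%, the CArG box of serum response factor by 1.33%, 1.79% and 0.414%, against 1.05% and 1.47%, and the lysosomal CLEAR motif TCACGTGA by 0.740%, 0% and 1.93%, against 1.61% and 0.785%. The palindromic motifs match both strands at 1 place, and a CArG box can contain TATAAA. All of these shares are descriptions with no test, and a match is not evidence of binding.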

How the data were processed

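Total RNA of plated bone marrow derived macrophages was made into 18 directional libraries, per the labels. The authors deposited raw counts per gene; Trim Galore, STAR and featureCounts on GRCm39 are named by the submitters' processing notes, while versions, strand setting and the handling of reads with several matches are not given in the sources used here, so overlapping, antisense and near-identical genes are uncertain. Columns were tied to groups by name and carry no replicate letter, so libraries are called by running number.

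Counts were tested with edgeR 4.0.16 in R 4.3.3 (filterByExpr by group, TMM, robust quasi-likelihood fit of 6 group means over 18 libraries), with Benjamini-Hochberg adjustment over 13068 genes and a threshold of 0.05. SE is the size of the log2 change over the root of its F value. CPM are TMM scaled, ± values without "SE" are SDs of 3 libraries, and fold values are ratios of group mean CPM. In B6 the TMM factors were 1.24 to 1.27 in unstimulated libraries, 0.83 with LPS and 0.93 to 0.94 with LPS/5z7. Levels set beside those of unstimulated cells therefore depend on this scaling. The 6 libraries held 15466988 to 30425934 counts, and pairs of replicates had a chi-square of 5.17 to 34.7 per degree of freedom, above counting noise.

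Symbols, exon numbers and gene spans came from GENCODE M21 on GRCm38 (52029 IDs, 91.4%, matched), and promoters from RefSeq on GRCm38.p6, 1 per gene, nearest to a GENCODE start; no gene coordinates of the data's own build are given. Named genes are the 15 most changed in each direction that were called, did not overlap and reached 10 CPM, up to 6 called and 2 abundant uncalled members of each list, a fixed set of 20 and the 3 with the smallest p between genotypes. Some genes that the rule names are not reported here. The members, lists and rules were chosen with earlier results of these data known.

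Sample titles carry the letters A to C in each B6 treatment and D to F in each T169A treatment, but the columns do not, so sets of consecutive running numbers were used as a replicate block. Within sets, deviations of the LPS/5z7 and LPS libraries from their group means correlated at 0.17 (libraries 3 and 2), 0.40 (6 and 5) and 0.47 (9 and 8) over 7609 genes, although library 3 correlated more with library 5 (0.36). Each pair exceeded 0.1, but so did the unmatched libraries 6 and 2 (0.30), so the pairing is uncertain in B6. In T169A the sets correlated at 0.73 (libraries 12 and 11), 0.41 (15 and 14) and 0.61 (18 and 17). Each was the highest value of its LPS/5z7 library, although the unmatched libraries 15 and 17 (0.375) and 18 and 14 (0.41) also correlated. A fit without the block may therefore miss changes that are even within sets. The main fit, with its counts, SEs and adjusted p, took no account of pairing, and the block was run as an alternative. Alternatives were DESeq2 1.42.0, its size factors, library size alone, other filters, the groups compared alone, the block and each library left out. Python 3.11.15 with matplotlib 3.10.9 drew the figures.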

Additional observations from a re-analysis of the deposited data

Results flagged for a closer look

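Both of the following genes were picked out because every LPS/5z7 library lay on the opposite side of the LPS libraries in B6 and in T169A. 4930579G24Rik was lower with LPS/5z7 in B6 (log2 change -0.93 ± 0.32, SE) and higher in T169A (0.88 ± 0.30), a difference of -1.81 ± 0.44. Aox1, an aldehyde oxidase gene, was higher with LPS/5z7 in B6 (0.83 ± 0.38) and lower in T169A (-1.56 ± 0.43), a difference of 2.39 ± 0.57. The B6 changes of 4930579G24Rik and Aox1 were not called (adjusted p = 0.083 and 0.174, edgeR), nor under any of the alternatives. Neither difference passed the edgeR test over all genes (adjusted p = 0.999986 for each, Benjamini-Hochberg), and both genes averaged under 1 CPM in all 4 groups: 4930579G24Rik had 0.358 CPM with LPS/5z7 and 0.709 CPM with LPS in B6, and Aox1 had 0.667 CPM with LPS/5z7 and 0.368 CPM with LPS.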

How the results depend on the processing

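In B6 1806 genes were called, 919 higher and 887 lower, against 2088 with DESeq2 (873 higher, 1215 lower), 1806 with its size factors in edgeR (776 higher, 1030 lower) and 1385 with no filter on low counts (591 higher, 794 lower). With library size alone 2855 genes were called, 2339 higher and 516 lower, and that scaling moved the median log2 change of all genes by 0.16. A fold minimum of 1.5, 2 or 4 left 936, 398 and 75 genes. Leaving out 1 library gave 1159 to 1275 genes, 471 to 605 higher and 629 to 733 lower. A replicate block over sets of consecutive running numbers called 2447 genes (1236 higher, 1211 lower) and, of the named genes, changed the calls of Cxcl10, Nfkb1, Rsad2, Lars2, Mir6236 and Gm15564 and no other. In T169A 1703 genes were called, 2707 with library size alone, 2340 with the block and 1009 to 1634 with 1 library left out. The difference of effects between genotypes called 0 genes under every alternative run. Of the named genes, those that changed sign did so with library size alone, where the log2 changes were 0.0758 for Birc3, 0.0685 for Casp8, 0.101 for Map3k7 and 0.0346 for Ripk1. A cause for these shifts was not tested. With 3 libraries a group, low genes are limited by depth: 3 counts stood for 0.0986 to 0.194 CPM.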

Other observations

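Among 24 macrophage identity and lineage factors, 8 (33.3%) were lower with LPS/5z7 and 1 (4.17%) was higher, against 6.79% and 7.03% of all genes. Cebpb, a factor that drives inflammatory transcription in macrophages, had 45.1, 32.8 and 55.9 CPM with LPS/5z7 and 94.1, 95.9 and 116 CPM with LPS (log2 change -1.19 ± 0.23, SE, adjusted p = 0.00197, edgeR). Pparg, a nuclear receptor, had 8.84 ± 0.213 CPM with LPS/5z7, 13.9 ± 0.174 CPM with LPS and 29.6 ± 3.44 CPM in unstimulated cells (SD, n = 3 each). The count of 8 was 5 without LPS/5z7 library 3, LPS library 2 or LPS library 5 and 4 without LPS/5z7 library 6, and the count of 1 was 0 whichever of the 6 libraries was left out. Of 13 Kruppel-like and NR4A factors, 3 (23.1%) were lower, 5 with a replicate block, and 0 higher: Klf4, Klf6 and Nr4a1 were 2.01-fold, 1.97-fold and 2.11-fold lower.

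The cAMP phosphodiesterase genes Pde4a and Pde4b moved in opposite directions. Pde4a had 19.0, 17.2 and 23.5 CPM with LPS/5z7 and 9.56, 8.67 and 9.72 CPM with LPS (log2 change 1.10 ± 0.14, SE, adjusted p = 5.54e-05, edgeR), and Pde4b had 234, 241 and 241 CPM with LPS/5z7 and 539, 522 and 469.6 CPM with LPS (log2 change -1.10 ± 0.26, SE, adjusted p = 0.0101, edgeR; 0.0527 with no filter on low counts). Mdm2, the ubiquitin ligase that acts on p53, had 144, 134 and 122 CPM with LPS/5z7 and 415, 400.0 and 432 CPM with LPS, a 3.11-fold lower mean. Mylip, a ubiquitin ligase gene and LXR target, had 95.9, 97.6 and 92.2 CPM with LPS/5z7 and 58.0, 58.6 and 54.6 CPM with LPS. Of 19 costimulatory and adhesion genes, 2 (10.5%) were lower and 1 (5.26%), Icosl, was higher, against 6.79% and 7.03% of all genes. The lower 2 were the costimulatory ligand gene Tnfsf4 (2.78-fold) and the integrin gene Itga5 (1.68-fold). With DESeq2 7 of the 19 were lower, and with a replicate block 8 were. The log2 changes of Mdm2, Mylip, Tnfsf4 and Itga5 in T169A were -1.70, 0.69, -1.50 and -0.75, all called there too.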
